A study of Gallus gallus with 8 samples.

Results

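The nuclear genes of oxidative phosphorylation were compared between Lmx1aE1-EGFP+ and Sox3U3-EGFP+ cells of the chick head. The genes were taken by name: every row of the count table whose symbol began with NDUFA, NDUFB, NDUFC, NDUFS or NDUFV and a digit, with UQCR, with COX and a digit for subunits IV to VIII, or with ATP5, and the rows SDHA, SDHB, SDHC, SDHD and CYCS. This gave 67 of the 24356 genes in the table, and all 67 were among the 16861 genes that passed the filter on low counts. By known role they fell into 31 subunits of complex I, 4 of complex II, 8 of complex III, cytochrome c itself (CYCS), 9 nuclear subunits of complex IV, 12 subunits of complex V and 2 proteins that are not subunits, the supercomplex factor COX7A2L and the assembly factor ATP5S. A row for CYC1, the cytochrome subunit of complex III, was not found under that symbol, and NDUFA4 was counted with complex IV, where the protein resides. Other subunits can also lack a row under these names, since 10501 rows carried no gene name. Counts by complex therefore cover the named rows, not whole complexes.

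Oxidative phosphorylation takes place in the inner membrane of mitochondria. Complexes I and II pass electrons from NADH and succinate to ubiquinone, complex III passes them on to cytochrome c, and complex IV gives them to oxygen, while complexes I, III and IV pump protons that complex V, the ATP synthase, uses to make ATP. Most subunits are encoded in the nucleus and imported, and a small hydrophobic core of complexes I, III, IV and V is encoded by the mitochondrial genome, so a working complex needs transcripts from both.

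Both groups were made from chick embryos electroporated in ovo at 3 to 5 somites (3 to 6 in the methods) with an enhancer reporter and collected at 18 to 21 somites, from which 2000 EGFP+ cells per library were sorted for bulk RNAseq with 75-base paired reads. Lmx1aE1 is an enhancer of the otic transcription factor gene Lmx1a and was used to mark ear cells, and Sox3U3 is an enhancer of Sox3 that was used to mark epibranchial cells. Each group had 4 libraries, numbered 1 to 4. Apart from the reporter the labels name no manipulation in either group, the reporter marks every cell in which the enhancer is active whatever its identity, and the labels do not say how many embryos went into a library.

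The libraries held 6559872 to 24173945 counts in Lmx1aE1 cells and 9388922 to 45183366 in Sox3U3 cells. LMX1A averaged 16.8 ± 1.34 CPM (counts per 1000000 counts, scaled by TMM factors) in Lmx1aE1 cells and 7.01 ± 1.03 CPM in Sox3U3 cells (SD, n = 4 each), and SOX3 averaged 7.29 ± 1.68 CPM in Lmx1aE1 cells and 12.3 ± 1.13 CPM in Sox3U3 cells. The otic markers summed to 1098 to 1348 CPM in Lmx1aE1 and 413 to 522 CPM in Sox3U3 libraries. SOX10 alone held 706 to 948 CPM of this in Lmx1aE1 and 149 to 208 CPM in Sox3U3 libraries. Of 11 otic markers tested 5 passed the test as higher in Lmx1aE1 cells, 1 as lower, and 5 did not pass. The marker that passed as lower was PAX2, with 34.5 CPM in Lmx1aE1 and 85.6 CPM in Sox3U3 cells (log2 fold change -1.31, edgeR adjusted p = 7.54e-06). The epibranchial markers summed to 74.9 to 92.8 CPM in Lmx1aE1 and 379.6 to 462 CPM in Sox3U3 libraries. The sorted populations also differed in other markers. Of 10 neural crest markers tested 7 passed the test as higher in Lmx1aE1 cells, 1 as lower, and 2 did not pass. SOX10 was counted in the otic list only. Neural crest markers summed to 955 to 1036 CPM in Lmx1aE1 and 303 to 398 CPM in Sox3U3 libraries, epidermal markers to 588 to 885 CPM in Lmx1aE1 and 3114 to 4082 CPM in Sox3U3 libraries, and pharyngeal endoderm markers to 12.2 to 16.8 CPM in Lmx1aE1 and 81.7 to 178 CPM in Sox3U3 libraries. Heart muscle markers, from a tissue rich in mitochondria, summed to 46.9 to 77.2 CPM in Lmx1aE1 and 73.0 to 241 CPM in Sox3U3 libraries, which overlapped, and skeletal muscle markers to 24.0 to 39.0 CPM in Lmx1aE1 and 47.3 to 117 CPM in Sox3U3 libraries. Endothelial and blood markers summed to 356, 312, 59.8 and 1211 CPM in Lmx1aE1 libraries 1 to 4, where library 4 stood apart. In Sox3U3 libraries they summed to 162 to 518 CPM. The globin gene HBZ alone held 371 CPM in Lmx1aE1 library 4. The endothelial gene KDR averaged 21.7 CPM in Lmx1aE1 and 55.1 CPM in Sox3U3 cells (log2 fold change -1.31, edgeR adjusted p = 0.00744). It was the only marker of this list that passed the test, and 8 did not pass. Mesenchyme markers summed to 1027 to 1188 CPM in Lmx1aE1 and 774 to 1418 CPM in Sox3U3 libraries, which overlapped. Of these 9 markers 5 passed the test as higher in Lmx1aE1 cells and none as lower. Neural tube markers summed to 35.2 to 43.7 CPM in Lmx1aE1 and 30.8 to 55.6 CPM in Sox3U3 libraries, and none of 4 passed. Every tested marker of these lists exceeded 1 CPM in at least 1 library, and the part of these cell types in the results that follow was not tested. In such bulk samples more cells of a type and more RNA per cell cannot be told apart.

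More genes of the respiratory chain were called higher than lower in Lmx1aE1 cells. Of the 67 genes, 20 passed the test as higher in Lmx1aE1 cells, 1 as lower, and 46 did not pass (edgeR quasi-likelihood test, Benjamini-Hochberg adjusted p under 0.05 over all 16861 genes). Against these 29.9% called higher stood 12.1% of all genes tested and 19.9% of the 8591 genes with a mean of at least 10 CPM, and against the single gene called lower stood 11.3% of all genes. The log2 fold changes of Lmx1aE1 over Sox3U3 cells were positive for 58 genes and negative for 9. Their median was 0.24 and their range -0.29 to 0.95. The median was -0.04 over all genes tested and 0.06 over genes with a mean of at least 10 CPM. In 23 of the 67 genes (34.3%) all 4 Lmx1aE1 libraries lay above all 4 Sox3U3 libraries. This held for 13.7% of all genes and 21.6% of genes with a mean of at least 10 CPM. In 1 gene all lay below, against 12.3% of all genes. The differences were small. None of the 67 passed the thresholds of the study, which also ask for an absolute log2 fold change above 1.5. Of all genes tested 3.18% passed them. Among the 67 this count was 0 with edgeR, DESeq2 and limma-voom. An unadjusted edgeR p under 0.05 was found for 37 of the 67. The same held for 5965 of all 16861 genes and 4074 of the 8591 genes with a mean of at least 10 CPM.

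The count of calls varied with the libraries included. It was 10, 11, 9 and 16 without Lmx1aE1 library 1, 2, 3 or 4. It was 12, 9 and 13 without Sox3U3 library 1, 2 or 4, and 34 without Sox3U3 library 3. The median log2 fold change stayed between 0.18 and 0.31 in these fits. Beside these counts the share of all genes called higher also differed between fits. For genes with a mean of at least 10 CPM the share was taken only in the main fit, where it was 19.9%, against 12.1% of all genes. Whether an excess over such genes remained in the other fits was not tested. With 1 library left out, the excess of respiratory genes over all genes was smallest without Sox3U3 library 2. There 13.4% of the respiratory genes and 11.01% of all genes were called higher, and without Lmx1aE1 library 3 the shares were 13.4% and 9.13%. Without Lmx1aE1 library 1 or 2 they were 14.9% and 8.60% or 16.4% and 8.67%, and without Lmx1aE1 library 4 they were 23.9% and 12.7%. Without Sox3U3 library 1 or 4 they were 17.9% and 11.2% or 19.4% and 10.4%, and without Sox3U3 library 3 they were 50.7% and 10.7%. Within the deeper libraries (Lmx1aE1 3 and 4, Sox3U3 1 and 2) 9 genes were called higher with a median of 0.35 (13.4%, against 6.92% of all genes), and within the shallower ones (Lmx1aE1 1 and 2, Sox3U3 3 and 4) 7 were called with a median of 0.21 (10.4%, against 7.38%). With at least 10 counts asked of every library 12 were called, 17.9% against 14.9% of all genes, so in that fit too the share was near that of all genes. Scaling by library size alone left 11 genes called higher, 16.4% of them against 10.2% of all genes. The genes ATP5F1B, ATP5MC3, COX5A, NDUFB8, NDUFS3 and NDUFC2 were called higher in the main fit and in each of the 20 alternative fits, and NDUFB1 and SDHC in all but 1.

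**Figure D1:**
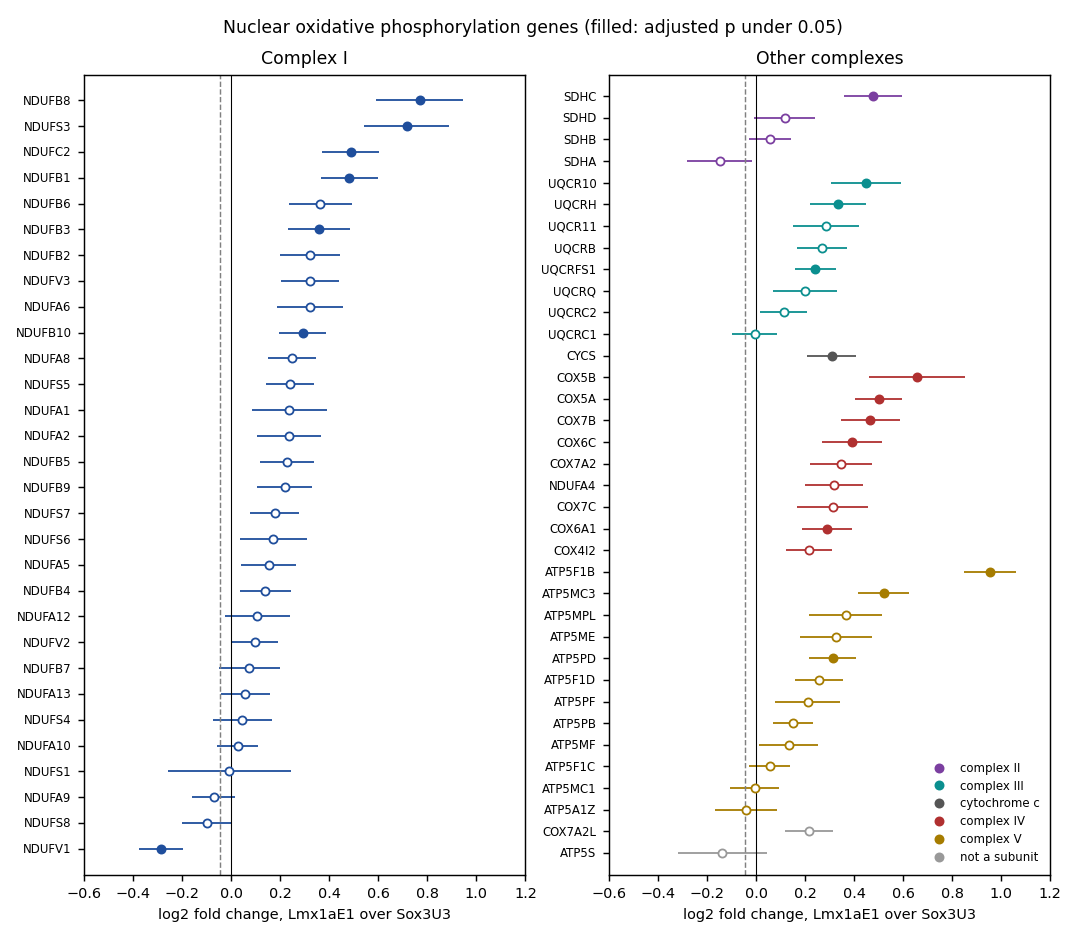
Log2 fold change of Lmx1aE1 over Sox3U3 cells (x axis) for the nuclear genes reported here (rows), complex I on the left and the rest on the right. Points are edgeR estimates with bars of 1 SE, filled points have an adjusted p under 0.05, colours give the complex, the solid line marks 0 and the dashed line the median of all genes tested (-0.04). Most points lie right of both lines, ATP5F1B lies farthest right at 0.95, and NDUFV1 is the only filled point left of 0.

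The libraries of a group did not stand at one level. For each gene the deviation from its mean log2 CPM over the 8 libraries was taken, and the median over the 67 genes was 0.20, 0.14, 0.086 and 0.10 in Lmx1aE1 libraries 1 to 4, and -0.053, -0.41, 0.061 and -0.15 in Sox3U3 libraries 1 to 4. Every Lmx1aE1 library lay above every Sox3U3 library, but Sox3U3 library 3 came close to the Lmx1aE1 libraries and Sox3U3 library 2 lay far below. Sox3U3 library 2 had the lowest value of its group in 49 of the 67 genes and of all 8 libraries in 46, and Sox3U3 library 3 had the highest value of its group in 50. The spread between libraries was wider in Sox3U3 cells, where the coefficient of variation had a median of 14.4% over the 67 genes, against 6.73% in Lmx1aE1 cells. In 60 of the 67 genes it was larger in Sox3U3 cells, while over all genes tested the medians were 19.2% in Lmx1aE1 and 21.4% in Sox3U3 cells.

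Genes of the cytosolic ribosome moved with the same libraries. Ribosomal protein genes made up 7.90, 7.30, 7.16 and 6.497% of the counts in Lmx1aE1 libraries 1 to 4, and 6.02, 4.96, 6.55 and 5.59% in Sox3U3 libraries 1 to 4. The 67 respiratory genes took 1.86, 1.81, 1.76 and 1.75% of the counts in Lmx1aE1 libraries and 1.68, 1.43, 1.76 and 1.54% in Sox3U3 libraries. Both shares were lowest in Sox3U3 library 2 and, within Sox3U3 cells, highest in library 3. Of 68 cytosolic ribosomal protein genes, 52 were called higher in Lmx1aE1 cells and none lower, with a median log2 fold change of 0.45. The share called higher was 76.5%, against 29.9% of the respiratory genes and 19.9% of genes with a mean of at least 10 CPM. The part of this shift in the respiratory genes was not tested. TMM factors computed without the respiratory, ribosomal protein and mitochondrially encoded genes gave 21 calls in place of 20. That fit changed the scaling only and was no test of this part.

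**Figure D2:**
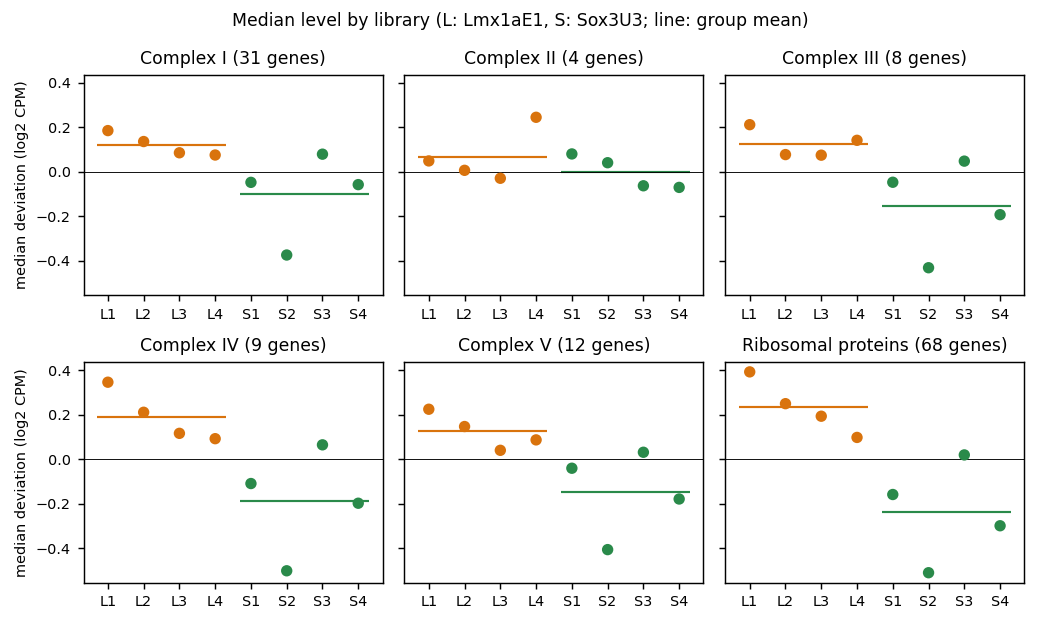
Median deviation from the gene's mean over all 8 libraries, in log2 CPM (y axis), for the genes of each respiratory complex and for the cytosolic ribosomal protein genes, in each library (x axis, L1 to L4 for Lmx1aE1 and S1 to S4 for Sox3U3). Lines are group means. In complexes III, IV and V and the ribosomal proteins every Lmx1aE1 library lies above every Sox3U3 library, in complex I Lmx1aE1 library 4 (0.076) falls just below Sox3U3 library 3 (0.079), and the 4 genes of complex II show no such order.

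Complex I, the NADH dehydrogenase, had a median log2 fold change of 0.23. Of its 31 subunits among the 67 genes 7 were called higher in Lmx1aE1 cells and 1 lower. The share called higher was 22.6%, near the 19.9% of genes with a mean of at least 10 CPM. The count of subunits called higher was 4 without Lmx1aE1 library 3 or Sox3U3 library 2 and 13 without Sox3U3 library 3. In the 16 subunits of the membrane arm, which pumps protons, 5 were called higher and all 16 estimates were positive, with a median of 0.24. In the 7 subunits of the Q module, which hands electrons to ubiquinone, 2 were called higher and the median was 0.18. In the 8 subunits of the N module, which oxidises NADH, none was called higher, 1 was called lower, and the median was 0.10. No test of the difference between these parts was made.

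NDUFB8, an accessory subunit of the membrane arm, had 70.2, 56.4, 65.5 and 53.1 CPM in Lmx1aE1 cells, against 45.7, 36.0, 38.8 and 22.7 CPM in Sox3U3 cells. NDUFS3, a core subunit of the Q module, had 69.8, 54.4, 61.8 and 49.8 CPM in Lmx1aE1 cells, against 43.5, 32.7, 42.7 and 24.1 CPM in Sox3U3 cells. In both genes the groups did not overlap and Sox3U3 library 4 was the lowest of all. The log2 fold changes were 0.77 (SE 0.18, adjusted p = 0.00482) for NDUFB8 and 0.72 (SE 0.17, adjusted p = 0.00671) for NDUFS3. The exact two-sided permutation test gave 0.0286 for each, the smallest p that 4 against 4 libraries allow. Every gene whose groups do not overlap reaches this p, so it adds nothing to the lack of overlap.

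NDUFC2, an accessory subunit of the membrane arm, had 247, 213, 213 and 195 CPM in Lmx1aE1 cells, against 159, 128, 183 and 149 CPM in Sox3U3 cells, without overlap, and a log2 fold change of 0.49 (SE 0.12, adjusted p = 0.00544). Further complex I subunits called higher were NDUFB1 (log2 fold change 0.48), NDUFB3 (0.36) and NDUFB10 (0.29), all of the membrane arm. NDUFB1 kept its call with any single library left out. NDUFB3, whose groups overlapped, lost it without any 1 library except Sox3U3 library 3 (0.26 to 0.41, adjusted p = 0.0510 to 0.133), and NDUFB10 lost it without Lmx1aE1 library 1, 2 or 3 or Sox3U3 library 1 or 2 (0.23 to 0.31, adjusted p = 0.0693 to 0.104). Just outside the threshold lay NDUFB6, with a log2 fold change of 0.36 and an adjusted p of 0.0511.

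The exception in complex I was NDUFV1, which carries the flavin that takes electrons from NADH. It had 304, 322, 317 and 351 CPM in Lmx1aE1 cells, against 415, 417, 354 and 393 CPM in Sox3U3 cells. All 4 Lmx1aE1 libraries were below all Sox3U3 libraries, with a narrow gap between Lmx1aE1 library 4 and Sox3U3 library 3. The log2 fold change was -0.29 (SE 0.090, adjusted p = 0.0279, exact permutation p = 0.0286). The call was lost without Lmx1aE1 library 1 (-0.25, adjusted p = 0.128), 2 (-0.27, adjusted p = 0.119) or 3 (-0.29, adjusted p = 0.0684) and without Sox3U3 library 1 (-0.26, adjusted p = 0.0838) or 2 (-0.26, adjusted p = 0.0686), and the estimate was negative in every fit, between -0.34 and -0.25.

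NDUFS1, the large iron-sulfur subunit of the N module, had 237, 243, 253 and 332 CPM in Lmx1aE1 cells, against 331, 348, 239 and 152 CPM in Sox3U3 cells. The Sox3U3 libraries spanned the whole range of the Lmx1aE1 libraries and went beyond it at both ends. Its log2 fold change was -0.01 with a 95% interval of -0.58 to 0.57, which leaves room for a difference in either direction as large as that of NDUFC2. The remaining partner in the N module core, NDUFV2, had a log2 fold change of 0.10 with a 95% interval of -0.11 to 0.30.

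**Figure D3:**
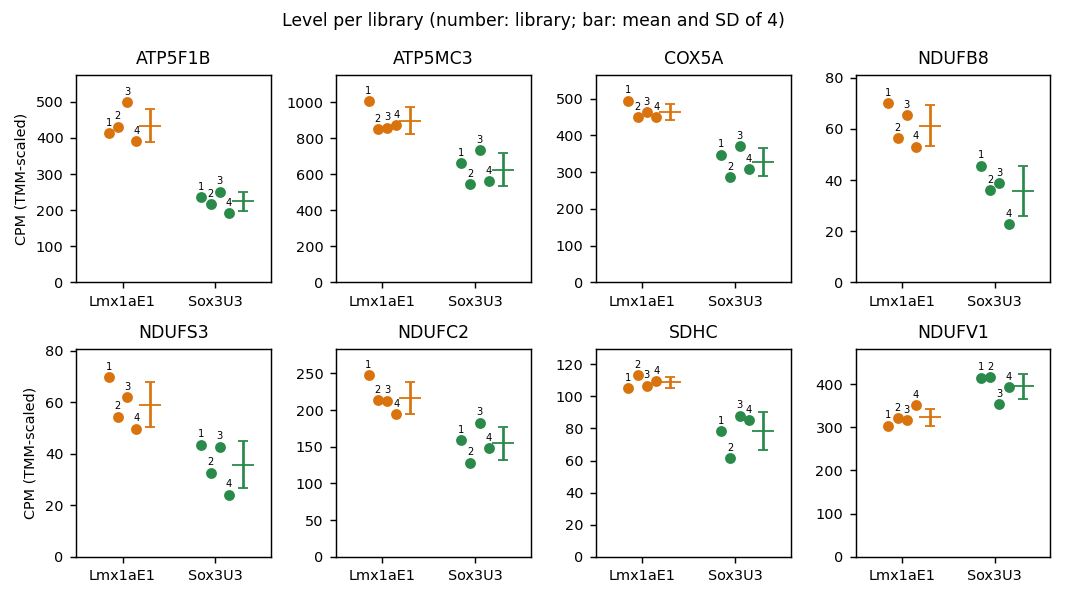
CPM per library (y axis, each panel from 0) of 8 genes in Lmx1aE1 cells (left) and Sox3U3 cells (right). Small numbers give the library, and the bar beside the points shows the mean and SD of the 4 libraries. In all 8 genes the groups do not overlap. NDUFV1 is the gene with lower values in Lmx1aE1 cells, and Sox3U3 library 4 is the lowest point for ATP5F1B, NDUFB8 and NDUFS3.

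Complex II, the succinate dehydrogenase, is the only complex with no mitochondrially encoded subunit and also works in the citric acid cycle. Of its 4 genes 1 was called higher (25%, against 19.9% of genes with a mean of at least 10 CPM). SDHC, one of the pair of membrane anchors, had 105, 113, 107 and 109.6 CPM in Lmx1aE1 cells, against 78.5, 61.4, 88.0 and 85.4 CPM in Sox3U3 cells. The groups did not overlap, and the log2 fold change was 0.48 (SE 0.12, adjusted p = 0.00790). The call was lost within the shallower libraries (0.34, adjusted p = 0.114).

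The other anchor, SDHD, had 308, 304, 301 and 355 CPM in Lmx1aE1 cells, against 335, 331, 289 and 214 CPM in Sox3U3 cells. Only Sox3U3 libraries 3 and 4 lay below all Lmx1aE1 libraries, and the log2 fold change of 0.12 (95% interval -0.15 to 0.38) did not pass. SDHB, the iron-sulfur subunit, had 260.2, 248, 237 and 267 CPM in Lmx1aE1 cells, against 249, 239, 243 and 242 CPM in Sox3U3 cells, overlapping values with a log2 fold change of 0.06 (95% interval -0.12 to 0.24). SDHA, the flavoprotein that oxidises succinate, had 127, 116, 143 and 184 CPM in Lmx1aE1 cells, against 172, 170.5, 134 and 156 CPM in Sox3U3 cells. It was lower in 3 Lmx1aE1 libraries than in most Sox3U3 libraries and highest of all in Lmx1aE1 library 4, and its log2 fold change of -0.15 (95% interval -0.43 to 0.13) did not pass.

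Complex III, the cytochrome bc1 complex, had a median log2 fold change of 0.25. Of its 8 genes 3 were called higher (37.5%, against 19.9% of genes with a mean of at least 10 CPM) and none lower. Its calls were the least stable, with 1 gene left without Lmx1aE1 library 4, 5 genes without Sox3U3 library 3 and 0 without any 1 of the other libraries. UQCRFS1, the Rieske iron-sulfur protein, had 453, 445, 436 and 490.5 CPM in Lmx1aE1 cells, against 390.4, 377, 405 and 372 CPM in Sox3U3 cells. It was the one complex III gene whose groups did not overlap. The log2 fold change was small, 0.24 (SE 0.083, adjusted p = 0.0460), and the call was lost on leaving out any single library except Sox3U3 library 3 (log2 fold change 0.20 to 0.27, adjusted p = 0.0706 to 0.0947). The small subunits UQCR10 (0.45, adjusted p = 0.0342) and UQCRH (0.33, adjusted p = 0.0455) were also called, in each case with overlapping groups. UQCR10 lost its call without Lmx1aE1 library 1, 2 or 3 or Sox3U3 library 1, 2 or 4 (0.32 to 0.46, adjusted p = 0.0581 to 0.0828), and UQCRH lost it with DESeq2 and without any 1 library except Sox3U3 library 3 (0.24 to 0.36, adjusted p = 0.0620 to 0.119). UQCRC1, one of the core proteins that resemble processing peptidases, had 449, 402, 447 and 500.2 CPM in Lmx1aE1 cells, against 467, 477, 412 and 449 CPM in Sox3U3 cells, and its log2 fold change of -0.01 had a 95% interval of -0.20 to 0.19.

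CYCS, the mobile carrier between complexes III and IV, had 587, 565, 533 and 583 CPM in Lmx1aE1 cells, against 458, 383, 537 and 455 CPM in Sox3U3 cells. Sox3U3 library 3 was above Lmx1aE1 library 3, and the other Sox3U3 libraries were below all Lmx1aE1 libraries. The log2 fold change was 0.31 (SE 0.10, adjusted p = 0.0335), and the call was lost on leaving out any single library except Sox3U3 library 3 (0.23 to 0.33, adjusted p = 0.0526 to 0.0901).

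Complex IV, the cytochrome c oxidase, had the highest share of calls among the complexes. Of its 9 nuclear subunits among the 67 genes 5 were called higher (55.6%, against 19.9% of genes with a mean of at least 10 CPM) and none lower. All 9 estimates were positive, with a median log2 fold change of 0.35. The count was 1 within the shallower libraries, 2 without Lmx1aE1 library 1 or 3 or Sox3U3 library 2, 3 without Lmx1aE1 library 2 or Sox3U3 library 1, and 8 without Sox3U3 library 3, and the median stayed between 0.24 and 0.48. COX5A had 495, 451, 463 and 449 CPM in Lmx1aE1 cells, against 348, 286, 371 and 309 CPM in Sox3U3 cells. COX5B, its zinc-binding neighbour around the catalytic core, had 14.01, 12.3, 12.96 and 12.1 CPM in Lmx1aE1 cells, against 10.4, 7.19, 7.25 and 7.39 CPM in Sox3U3 cells. Neither overlapped between groups, and Sox3U3 library 1 stood above the other Sox3U3 libraries for COX5B. The log2 fold changes were 0.50 (SE 0.096, adjusted p = 0.00120) for COX5A and 0.66 (SE 0.20, adjusted p = 0.0224) for COX5B. COX5B rested on far fewer reads, with 69 counts in its lowest library, and lost its call without Lmx1aE1 library 1 (0.63, adjusted p = 0.0632) or 3 (0.64, adjusted p = 0.0600) and without Sox3U3 library 2 (0.60, adjusted p = 0.0618).

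The remaining complex IV calls were COX7B (log2 fold change 0.47), COX6C (0.39) and COX6A1 (0.29). COX7B kept its call with any single library left out. COX6C, whose groups overlapped, lost it without Lmx1aE1 library 1, 2 or 3 or Sox3U3 library 1 or 2 (0.28 to 0.41, adjusted p = 0.0515 to 0.0882), and COX6A1 lost it with DESeq2 and without any 1 library except Sox3U3 library 3 (0.21 to 0.31, adjusted p = 0.0504 to 0.135). COX7A2 had 251, 222, 209.6 and 205 CPM in Lmx1aE1 cells, against 184, 136, 218 and 161 CPM in Sox3U3 cells, with overlap through Sox3U3 library 3. Its log2 fold change of 0.35 did not pass (adjusted p = 0.0607) and passed without Sox3U3 library 3 (0.48, adjusted p = 0.0117). COX7A2L, a paralog that joins complexes III and IV into supercomplexes, had 145, 136, 132 and 137 CPM in Lmx1aE1 cells, against 121, 113, 131 and 108 CPM in Sox3U3 cells. Its groups did not overlap, yet the log2 fold change of 0.22 did not pass (adjusted p = 0.129).

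NDUFA4 had 381, 405, 358 and 332 CPM in Lmx1aE1 cells, against 299, 232, 360.1 and 294 CPM in Sox3U3 cells. The groups overlapped through Sox3U3 library 3, and the log2 fold change of 0.32 did not pass (adjusted p = 0.0612) but passed without Lmx1aE1 library 4 (0.36, adjusted p = 0.0447) or Sox3U3 library 3 (0.43, adjusted p = 0.0131). The row named COX4I2 had 404, 387, 388 and 386 CPM in Lmx1aE1 cells, against 363, 292, 369 and 324 CPM in Sox3U3 cells, with no overlap and a log2 fold change of 0.22 that did not pass (adjusted p = 0.105). RefSeq's chicken table gives COX4I2 as another name of COX4I1, the form of this subunit found in most tissues, so the row says nothing of a switch between the forms.

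Complex V, the ATP synthase, had 3 of 12 genes called higher (25%, against 19.9% of genes with a mean of at least 10 CPM) and none lower. The median log2 fold change was 0.23, and this complex held the largest difference of all 67 genes. The count was 6 without Sox3U3 library 3 and 2 or 3 without any other library. ATP5F1B, the catalytic beta subunit of the F1 head, had 414, 432, 499 and 391 CPM in Lmx1aE1 cells, against 236, 217, 251 and 193 CPM in Sox3U3 cells. The lowest Lmx1aE1 library was well above the highest Sox3U3 library. The log2 fold change was 0.95 (SE 0.11, adjusted p = 8.5e-06, exact permutation p = 0.0286), a fold of 1.94, and it stayed between 0.87 and 1.02 in the alternative fits.

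The alpha subunit, with which beta alternates in the F1 head, showed no called difference. It is represented by the row ATP5A1Z, the copy on the Z chromosome, which had 1116, 1032, 1098 and 1599 CPM in Lmx1aE1 cells, against 1369, 1312, 1228 and 1080.3 CPM in Sox3U3 cells. Lmx1aE1 libraries 1 to 3 lay below Sox3U3 libraries 1 to 3, Sox3U3 library 4 lay among them and Lmx1aE1 library 4 was the highest of all, and the log2 fold change was -0.04 with a 95% interval of -0.31 to 0.23. The counts of ATP5F1B per count of ATP5A1Z were 0.371, 0.418, 0.454 and 0.245 in Lmx1aE1 libraries, against 0.172, 0.165, 0.205 and 0.179 in Sox3U3 libraries, so the ratio did not overlap between groups.

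Lmx1aE1 library 4 stood apart in other genes with sex-linked copies. SPIN1W, a gene of the female-specific W chromosome, had 38.9, 40.8, 36.8 and 10.3 CPM in Lmx1aE1 cells, against 27.6, 37.0, 29.0 and 38.9 CPM in Sox3U3 cells, and its Z copy SPIN1Z had 116, 123, 105 and 188 CPM in Lmx1aE1 cells, against 174, 165, 137 and 117 CPM in Sox3U3 cells. Library 4 thus had the lowest W and the highest Z value of all 8 libraries. Without it the log2 fold change of ATP5A1Z was -0.21, and the part of the sex of the embryos in this gene was not tested. A W copy of ATP5A1 would share reads with the Z copy, so the value of ATP5A1Z is uncertain.

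Among the 67 genes a pair encodes the c subunit, whose ring turns in the membrane as protons pass. In mammals these genes give the same mature protein. The ratio given below covers this pair only, not any c subunit gene under another name. ATP5MC3 had 1006, 851, 859 and 875 CPM in Lmx1aE1 cells, against 663, 544, 735 and 561 CPM in Sox3U3 cells. ATP5MC1 had 525, 476, 476 and 527 CPM in Lmx1aE1 cells, against 571, 414, 535 and 491 CPM in Sox3U3 cells. ATP5MC3 was separated between groups, with a log2 fold change of 0.52 (SE 0.10, adjusted p = 0.00162), and ATP5MC1 overlapped fully, with a log2 fold change of -0.01 (95% interval -0.22 to 0.21). Counts of ATP5MC3 per count of ATP5MC1 were 1.92, 1.79, 1.80 and 1.66 in Lmx1aE1 libraries, against 1.16, 1.31, 1.37 and 1.14 in Sox3U3 libraries, also without overlap. The third complex V call was ATP5PD, a subunit of the peripheral stalk (log2 fold change 0.31, adjusted p = 0.0265), whose call was lost without Lmx1aE1 library 1, 2 or 3 or Sox3U3 library 1 or 2 (0.25 to 0.32, adjusted p = 0.0565 to 0.0753). ATP5S, the assembly factor among the 67, had a log2 fold change of -0.14 and did not pass.

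The subunits encoded in the mitochondrial genome gave few calls. Of 13 such genes none was called higher and 2 were called lower in Lmx1aE1 cells, the median log2 fold change was -0.0046, beside 11.3% of all genes called lower. Without Sox3U3 library 2, 5 were called lower, and 1 was called higher with limma-voom and with a depth block. The genes called lower were both core subunits of complex IV and are named because their count was small, MT-CO1 (log2 fold change -0.30, adjusted p = 0.0122) and COX3 (-0.38, adjusted p = 0.0279). MT-CO1 lost its call without Lmx1aE1 library 2 (-0.26, adjusted p = 0.0703), and COX3 lost its call without any 1 of the Lmx1aE1 libraries and without Sox3U3 library 3 or 4 (-0.39 to -0.23, adjusted p = 0.0546 to 0.0877). Mitochondrially encoded genes made up 5.21, 4.801, 5.05 and 4.52% of the counts in Lmx1aE1 libraries, and 5.57, 4.93, 5.92 and 7.03% in Sox3U3 libraries, which overlapped.

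Set against the nuclear genes, the mitochondrial counts separated the groups. Counts of the 13 mitochondrially encoded genes per count of the 67 nuclear genes were 2.81, 2.65, 2.87 and 2.58 in Lmx1aE1 libraries, against 3.31, 3.44, 3.37 and 4.55 in Sox3U3 libraries. Within complex IV alone the same ratio was 8.76, 8.86, 9.95 and 9.76 in Lmx1aE1 libraries, against 13.5, 16.2, 11.99 and 18.1 in Sox3U3 libraries. No other complex was taken alone, and complex IV had the highest share of nuclear calls and held both mitochondrial calls. Every Lmx1aE1 library was below every Sox3U3 library in both ratios, and Sox3U3 library 4 was the highest. HSP90B1, a chaperone of the endoplasmic reticulum, separated the groups as well, with 1765 to 2058 CPM in Lmx1aE1 and 3161 to 6675 CPM in Sox3U3 libraries, highest in Sox3U3 library 4, and the part of this difference in the ratio was not tested.

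**Figure D4:**
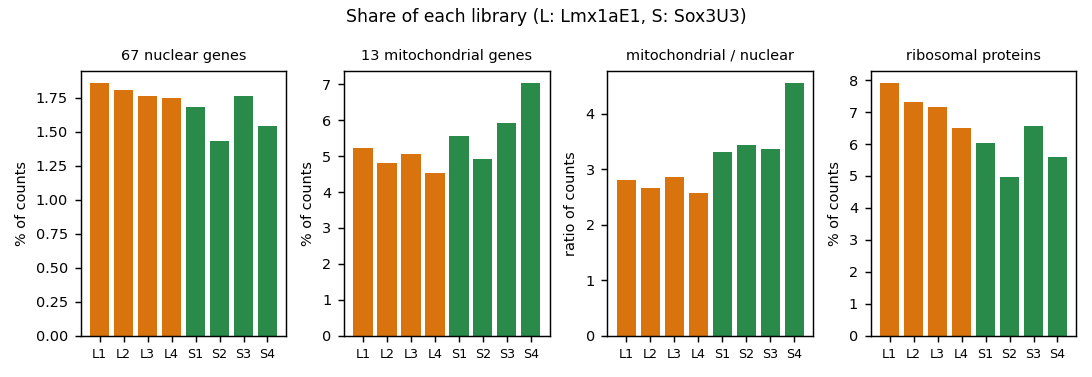
Share of each library's counts held by the 67 nuclear genes, by the 13 mitochondrially encoded genes and by the cytosolic ribosomal protein genes (y axis, percent), and the ratio of mitochondrially encoded to nuclear counts, in Lmx1aE1 libraries (L1 to L4) and Sox3U3 libraries (S1 to S4). Bars start at 0 and show single libraries. The ratio is 2.58 to 2.87 in Lmx1aE1 and 3.31 to 4.55 in Sox3U3 libraries, while the nuclear share of Sox3U3 library 3 (1.76%) lies within the range of the Lmx1aE1 libraries (1.75 to 1.86%).

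Other nuclear genes of the mitochondrion were described from lists, each by its counts and median. Among genes with a mean of at least 10 CPM, 19.9% were called higher. Of 70 genes of the mitochondrial ribosome, which makes the mitochondrially encoded subunits, 28 were called higher in Lmx1aE1 cells and none lower, the median log2 fold change was 0.32, and the count of calls lay between 18 (without Lmx1aE1 library 3) and 36 (without Sox3U3 library 3) with single libraries left out. The largest called difference was in MRPL44 of the large subunit, with 75.2, 65.9, 82.4 and 64.0 CPM in Lmx1aE1 cells, against 42.0, 36.6, 30.1 and 19.0 CPM in Sox3U3 cells (log2 fold change 1.16, adjusted p = 0.000597). Of 21 genes of protein import and metabolite carriage 10 were called higher and 1 lower, with a median of 0.33, and 4 or 5 were called higher without Lmx1aE1 library 1, 2 or 3 or Sox3U3 library 1, 2 or 4. TOMM70, a receptor of the outer membrane, had 68.3, 70.8, 56.8 and 52.2 CPM in Lmx1aE1 cells, against 32.0, 29.3, 35.3 and 17.4 CPM in Sox3U3 cells (1.11, adjusted p = 0.000436). SLC25A4, an exchanger of ADP and ATP that is abundant in heart and muscle, was the gene called lower, with 39.4, 35.8, 36.1 and 42.5 CPM in Lmx1aE1 cells, against 67.4, 62.1, 71.0 and 68.7 CPM in Sox3U3 cells (-0.81, adjusted p = 0.000119). Of 9 heart muscle markers tested 3 were called lower in Lmx1aE1 cells and 6 did not pass, and their part in the value of SLC25A4 was not tested.

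Of 47 assembly factors of the complexes 9 were called higher and none lower, with a median log2 fold change of 0.25. That is 19.1%, near the 19.9% of genes with a mean of at least 10 CPM. The list for complex I held NDUFAB1, itself a complex I subunit that the choice by name did not take. NDUFAB1 did not pass (log2 fold change 0.55, adjusted p = 0.121). The calls were 2 of 14 factors for complex I, where FOXRED1 had the largest difference (1.26, adjusted p = 0.0186), 5 of 22 for complex IV, led by COX11, which delivers copper (log2 fold change 0.999, adjusted p = 0.00118), and 2 of 5 for complex V, led by ATPAF1, which binds the beta subunit (log2 fold change 0.997, adjusted p = 0.0126). FOXRED1 was expressed at 3.40, 3.33, 7.27 and 4.07 CPM in Lmx1aE1 cells, against 1.53, 2.22, 2.94 and 1.11 CPM in Sox3U3 cells, and lost its call without Lmx1aE1 library 3 (0.90, adjusted p = 0.125) or Sox3U3 library 1 (1.14, adjusted p = 0.0567). Without Lmx1aE1 library 1 or Sox3U3 library 2 the count for complex IV was 2, and without Lmx1aE1 library 3 those for complexes I and V were 0 and 1. No factor passed among 2 for complex II and 4 for complex III.

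Of 16 genes for expression of mitochondrial DNA and for the control of mitochondrial gene sets, 7 were called higher and 2 lower. The share called higher was 43.8%, against 19.9% of genes with a mean of at least 10 CPM. The share called lower was near the 11.3% of all genes. The median log2 fold change was 0.41. Leaving out Lmx1aE1 library 1, 2 or 3 or Sox3U3 library 1 or 3 left 1 called lower. TWNK, the helicase that replicates mitochondrial DNA, had 50.1, 40.3, 37.0 and 36.3 CPM in Lmx1aE1 cells, against 17.1, 21.1, 25.5 and 23.7 CPM in Sox3U3 cells (0.91, adjusted p = 0.000638). PPARGC1A, a coactivator known for driving mitochondrial gene expression in muscle and fat, had 2.62, 2.42, 3.12 and 2.39 CPM in Lmx1aE1 cells, against 6.46, 7.40, 10.7 and 3.54 CPM in Sox3U3 cells (-1.40, adjusted p = 0.00388). GABPA and NRF1, transcription factors known to bind many promoters of respiratory genes, and TFAM, which packages and transcribes mitochondrial DNA, were added after their values were seen. GABPA (0.44, adjusted p = 0.00329) and TFAM (0.61, adjusted p = 0.0104) were called higher, and NRF1 (0.39, adjusted p = 0.0878) did not pass, though it passed without Sox3U3 library 1 (0.53, adjusted p = 0.0294).

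Genes of central carbon metabolism were called higher about as often as all genes tested, of which 12.1% were higher. Of all genes tested 11.3% were called lower. Of the 8591 genes with a mean of at least 10 CPM, 1711 (19.9%) were called higher and 1231 lower. The lists are short, and no test of their shares was made. Of 17 genes of the citric acid cycle and pyruvate dehydrogenase 3 were called higher and 3 lower (17.6% each), with a median log2 fold change of 0.09. DLAT, the acetyltransferase of pyruvate dehydrogenase, had the largest positive difference (0.72, adjusted p = 0.0147), and its call was lost without Lmx1aE1 library 1 (0.62, adjusted p = 0.0616). The 3 genes called lower, named after their values were seen, were SUCLA2, SUCLG1 and SUCLG2, which together encode succinyl-CoA ligase, the step that yields the succinate used by complex II. SUCLG2 had 158, 155, 160 and 162 CPM in Lmx1aE1 cells, against 206, 222, 231 and 230 CPM in Sox3U3 cells (-0.49, adjusted p = 0.000795). Of 17 glycolytic genes 2 were called higher (11.8%) and 4 lower, with a median of -0.06. LDHB, the lactate dehydrogenase subunit of aerobic tissues, had 2861, 2723, 2787 and 2939.8 CPM in Lmx1aE1 cells, against 1750.4, 1676, 1837 and 1537 CPM in Sox3U3 cells (0.73, adjusted p = 7.53e-06). PFKM, the muscle form of phosphofructokinase, had 7.99, 11.97, 12.8 and 14.5 CPM in Lmx1aE1 cells, against 24.7, 23.3, 25.9 and 34.4 CPM in Sox3U3 cells (-1.18, adjusted p = 0.000385).

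**Figure D5:**
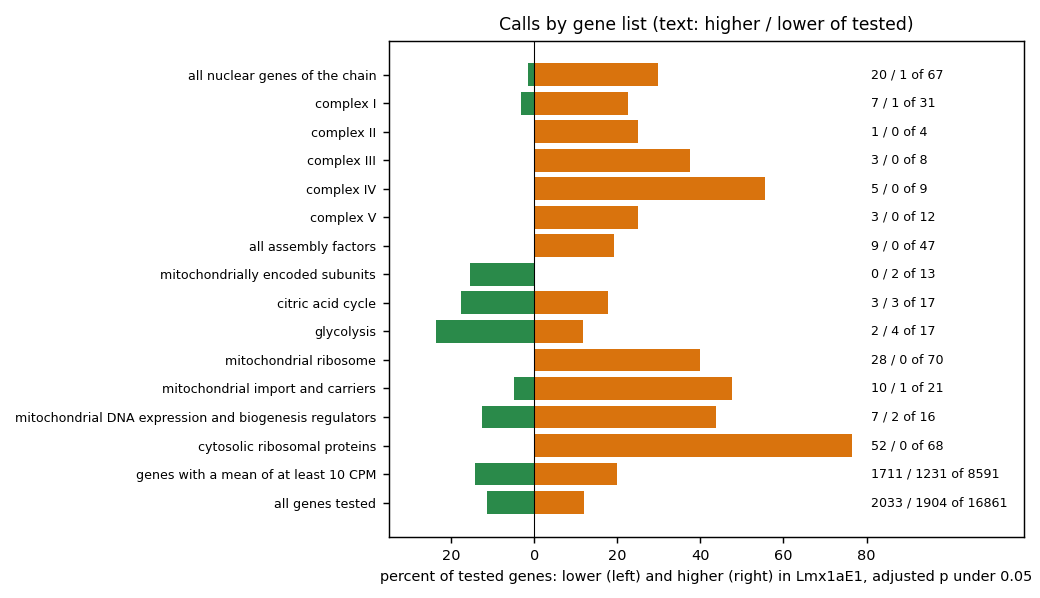
Percent of the tested genes of each list (rows) that were called higher in Lmx1aE1 cells (orange, right of 0) or lower (green, left of 0) at an adjusted p under 0.05, with the counts at the right. The 67 nuclear genes show 20 higher and 1 lower, the mitochondrial ribosome 28 and 0 of 70, the mitochondrially encoded subunits 0 and 2 of 13, and the bottom rows give genes with a mean of at least 10 CPM and all genes tested.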

How the data were processed

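Counts per gene for 8 libraries, deposited by the authors as 1 table of raw counts, were analysed. Per the study's methods reads were aligned with an nf-core pipeline that uses STAR, and the submitters' processing notes name Trim Galore, featureCounts and the chicken build galGal6. The strand setting of the counting was not given in the sources used here, so reads of overlapping antisense genes could not be told apart. Totals per library were 6559872 to 45183366 counts, and the lowest count of any of the 67 genes in a library was 69. All 8 per-sample columns were used. Of the rows, 10501 carried no gene name and stayed in the fit under their identifier.

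Libraries were grouped by their labels. Genes were filtered with filterByExpr, scaled by TMM factors and tested with the edgeR quasi-likelihood test (edgeR 4.0.16, limma 3.58.1, R 4.3.3) over the whole table, Lmx1aE1 over Sox3U3, with Benjamini-Hochberg adjustment and a threshold of 0.05. Single genes also had a two-sided exact permutation test of mean log2 CPM (prior count 2). The edgeR p-values set the group difference against the spread between the libraries, which is estimated with information from other genes. The study's methods call the libraries biological replicates, and the number of embryos in each is not given by the labels. No 2 libraries agreed within sampling noise (lowest chi-square per degree of freedom 3.60 over 28 pairs). The scripts were tested on simulated counts.

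Genes were named by rule: the 5 with the largest called change in each direction, isoform pairs, and the core subunits of each complex, and from other lists the gene with the largest called change in each direction. One gene that this rule names is counted but not reported here. NDUFC2 and the remaining calls were added after their values were seen. The members and lists were chosen with earlier results of these data known. Gene roles and complexes are textbook assignments. RefSeq names (chicken assembly GRCg7b) matched 53 of the 67 genes by symbol, 9 by synonym and left 5 unmatched, and its coordinates were not used since the builds differ. Alternatives were RLE factors, library size alone, TMM factors without the respiratory, ribosomal and mitochondrially encoded genes, other filters, DESeq2 1.42.0, limma-voom with quality weights, blocks for replicate number and depth, fits of the deeper and shallower libraries apart (above and below 15000000 counts), thinning to 6559872 counts, leaving out each library, and stricter thresholds. No sequences were used here.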

Additional observations from a re-analysis of the deposited data

Results flagged for a closer look

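In 68 groups of 4 libraries examined with Dixon's gap ratio, 5 had 1 library far from the others, where chance flags about 1 in 20 groups, or 3.4 of 68. COX5B was high in Sox3U3 library 1 (3.40 log2 CPM, against 2.87 to 2.91 in the other Sox3U3 libraries), with a gap that was 0.926 of the range. ATP5MC3 was high in Lmx1aE1 library 1 (9.98 log2 CPM, against 9.73 to 9.77, gap ratio 0.836), and so was COX4I2 (8.66 log2 CPM, against 8.59 to 8.60, gap ratio 0.903). SDHD was high in Lmx1aE1 library 4 (8.47 log2 CPM, against 8.23 to 8.27, gap ratio 0.868). The counts of mitochondrially encoded genes per count of the nuclear genes were high in Sox3U3 library 4 (4.55, against 3.31 to 3.44, gap ratio 0.893).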

How the results depend on the processing

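The median log2 fold change of the 67 genes, 0.24, stayed between 0.18 and 0.35 in all 20 alternative fits, and no named call reversed. The count of genes called higher, 20, was 21 with RLE factors (31.3%, against 12.5% of all genes). It was also 21 with TMM factors computed without the respiratory, ribosomal and mitochondrially encoded genes (31.3% against 12.3%). It was 19 with DESeq2 (28.4% against 14.4%), 17 after thinning (25.4% against 14.1%) and 23 with no filter (34.3% against 8.77%). It was 30 with a depth block (44.8%, against 15.1% of all genes), 33 with limma-voom (49.3% against 15.3%) and 11 with library size alone (16.4% against 10.2%). With at least 10 counts in every library it was 12 (17.9% against 14.9%, nearly no excess). With fewer samples it was 9 in the deeper libraries alone (13.4% against 6.92%) and 7 in the shallower ones alone (10.4% against 7.38%). It was 9 at an adjusted p under 0.01, where the share of all genes was not taken, and 0 with a log2 fold change past 1.5. Leaving out single libraries gave 9 to 34. The 1 gene called lower, NDUFV1, was not called (0) with no filter, in the replicate block, in either depth class alone or under the stricter thresholds, and leaving out single libraries gave 0 to 1. Where not given by the construction, the cause was not tested. Uncalled genes near 0 changed sign between fits: NDUFS1 ranged over -0.19 to 0.30, ATP5A1Z over -0.21 to 0.05, ATP5MC1 over -0.09 to 0.06, UQCRC1 over -0.06 to 0.06 and SDHD over -0.00069 to 0.29.

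Over all genes tested, same-numbered libraries of the 2 groups deviated with correlations of -0.11, -0.23, 0.05 and -0.16. The globin gene HBZ had 103, 64.7, 1.45 and 371 CPM in Lmx1aE1 libraries 1 to 4, against 144, 85.5, 1.58 and 3.95 CPM in Sox3U3 libraries 1 to 4. Whether same-numbered libraries were collected together is not given by the labels and was not tested. A fit with a replicate block called 13 genes higher (19.4%, against 9.19% of all genes) and 0 lower. Depth limits COX5B and ATP5S, the genes with fewest counts, and 4 libraries a group limit differences smaller than the spread between Sox3U3 libraries.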
